A study of Prunus persica with 2 samples.

Results

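The genes described here are the annotated peach (Prunus persica) genes that stood higher in fruit wounds given the yeast Pichia membranaefaciens than in wounds given water. A gene was a member when its value was higher by 1 or more on the log2(FPKM + 1) scale and reached 5 FPKM or more in the treated library, where FPKM is a count of fragments scaled by exonic length and by library size. Rows with the same pair of values were taken once. The rule gave 147 rows of 26873 annotated ones, and 143 members once identical pairs were taken once. The members were 1.02% of the 13958 annotated genes that reached 1 FPKM in either library, and 1.47% of the 9747 that reached 5 FPKM in the treated library. The mirror rule (lower by 1 or more, from 5 FPKM or more in the control) gave 152 genes, or 1.09% of 13958. Without the treated minimum, 203 genes (1.45%) were higher by 1 or more. The members were chosen by their FPKM in these same libraries, so their values are a description and nothing is read from the counts.

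There were 2 libraries, 1 per group, from wound tissue of fruit kept at 28 °C and 95% relative humidity. The control wounds received 30 μL of sterilized water and the treated wounds 30 μL of a suspension of Pichia membranaefaciens, whose strain and cell number the labels do not state. Tissue was taken 3 days after treatment in both groups. Cultivar, number of fruit per library and any pooling were not given in the sources used here. By its own description, the study looked for resistance genes whose expression the yeast alters in peach.

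Pichia membranaefaciens is an antagonistic yeast studied for the control of postharvest rots. Such yeasts take up nutrients and space in the wound ahead of decay fungi, and fruit tissue in contact with them is known to respond with defence reactions of its own. In plants, many families that act in defence and in secondary metabolism, among them receptor kinases, pathogenesis-related proteins and enzymes that modify small molecules, are laid out as neighbouring copies that arose by duplication. That is background on the field; the deposited files do not say which function any identifier below has.

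The control library held an estimated 26792572 fragments and the treated library 25121265. Each group is a lone library without a replicate, so no test or p-value is given, and differences between the treatments cannot be told apart from differences between the fruit sampled. Ratios carry exact (Clopper-Pearson) 95% intervals from estimated fragments, which cover counting error only. In bulk tissue, fewer cells of a type and less RNA per cell cannot be told apart. The members' identifiers are not paired with names or products in the files, and 0 of 147 matched the RefSeq gene table (assembly Prunus_persica_NCBIv2), so the labelled tissue could not be checked against marker genes.

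Together the 143 members made up 0.427% of the annotated FPKM with water and 1.42% with the yeast. Their summed value was 2381 FPKM with water and 7889 FPKM with the yeast. The median member had 6.64 FPKM in the control, with a middle 50% of members between 2.49 and 14.8 FPKM, and 19.1 FPKM in the treated library. Members were thus mostly genes of modest level in the water-treated wound. Of the 143, 69 had less than 3 times their control value, 46 had 3 to 5 times, 19 had 5 to 10 times and 9 had 10 times or more. The difference was 2 or more at 29 members and 3 or more at 8, and its median was 1.39. Over all 13958 annotated genes the median difference was 0.02, and 90% of genes lay between -0.57 and 0.55. A few abundant genes held much of the added signal: the 4 members with the highest treated values summed to 752 FPKM with water and 2652 FPKM with the yeast, which was 34.5% of the members' summed gain.

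**Figure D1:**
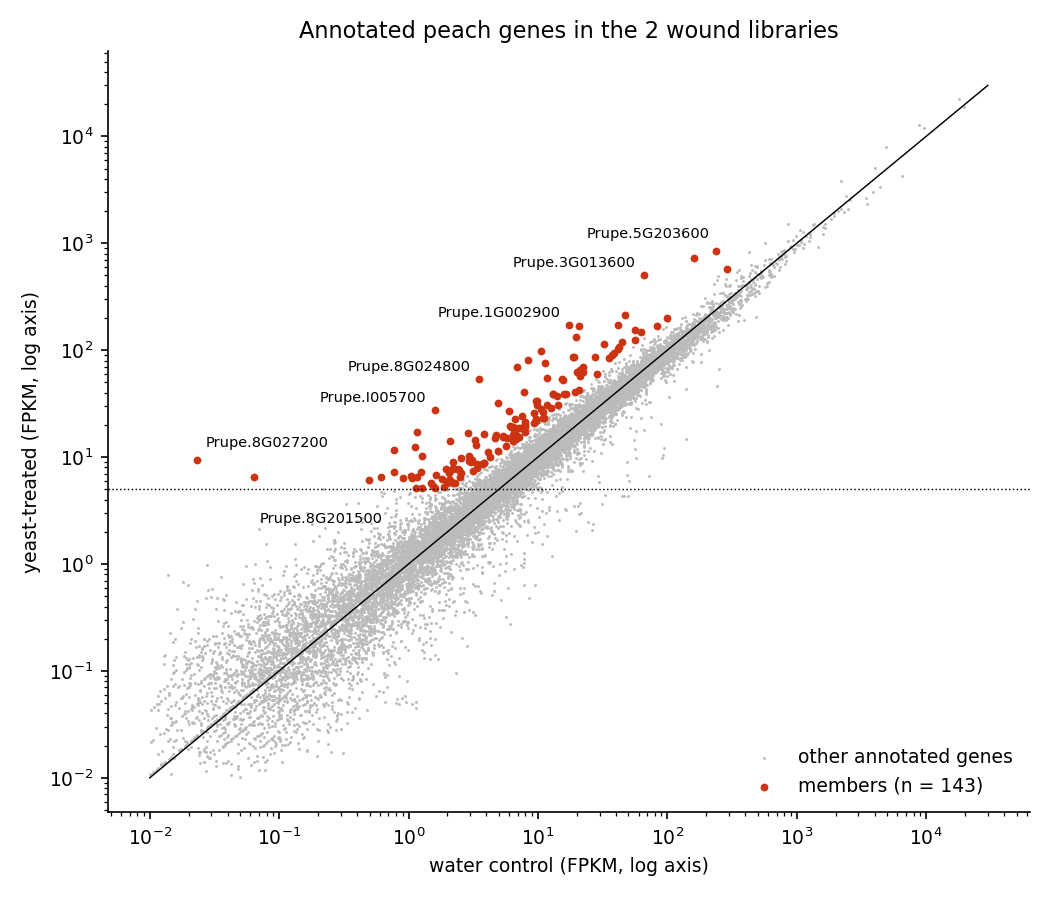
Value of each annotated gene in the water control (horizontal, FPKM, log axis) and in the yeast-treated library (vertical, FPKM, log axis); red points are the 143 members, grey points other annotated genes above 0.01 FPKM in both, the line marks equal values and the dotted line 5 FPKM. Members run from 0.0232 to 288 FPKM in the control.

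Prupe.8G024800, a gene of 3 exons on the plus strand of Pp08 (chromosome-scale sequence 8 of the files, bases 2253080 to 2255075), had the largest difference, at 3.60, between 3.50 FPKM with water and 53.5 FPKM with the yeast. Its ratio was 15.3 (interval 12.2 to 19.6). The next largest was at Prupe.I005700, on the unplaced sequence scaffold_71 from 12 to 1373, with 1.60 FPKM with water and 27.5 FPKM with the yeast. Its ratio was 17.2 (12.2 to 24.9). Its only expressed annotated neighbour on that scaffold, Prupe.I005800 (8940 to 10574), was also a member, with 8.35 FPKM with water and 80.2 FPKM with the yeast. Both genes have 2 exons and lie on the minus strand.

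A group of members stood near 10 times their control value from a moderate start. Prupe.1G002900 (Pp01, 312661 to 314932) had 17.4 FPKM with water and 171 FPKM with the yeast, a ratio of 9.82 (9.12 to 10.6). Prupe.1G003000, the next gene (319777 to 321560), had 6.93 and 69.0 FPKM, a ratio of 9.96 (8.81 to 11.3). Prupe.7G168300 (Pp07, 17131540 to 17133808, 3 exons) had 10.6 FPKM with water and 97.4 FPKM with the yeast, with a ratio of 9.19. These 3 genes sat at control ranks 5147, 8752 and 7120 among annotated genes, and at treated ranks 440, 1420 and 932. Prupe.4G204900 (Pp04, 12759362 to 12762611, 2 exons) had 20.8 FPKM with water and 169 FPKM with the yeast, a ratio of 8.14 (7.69 to 8.63). Prupe.4G047900, a single-exon gene on Pp04 (2286615 to 2288489), was lower, with 1.16 FPKM with water and 17.1 FPKM with the yeast.

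**Figure D2:**
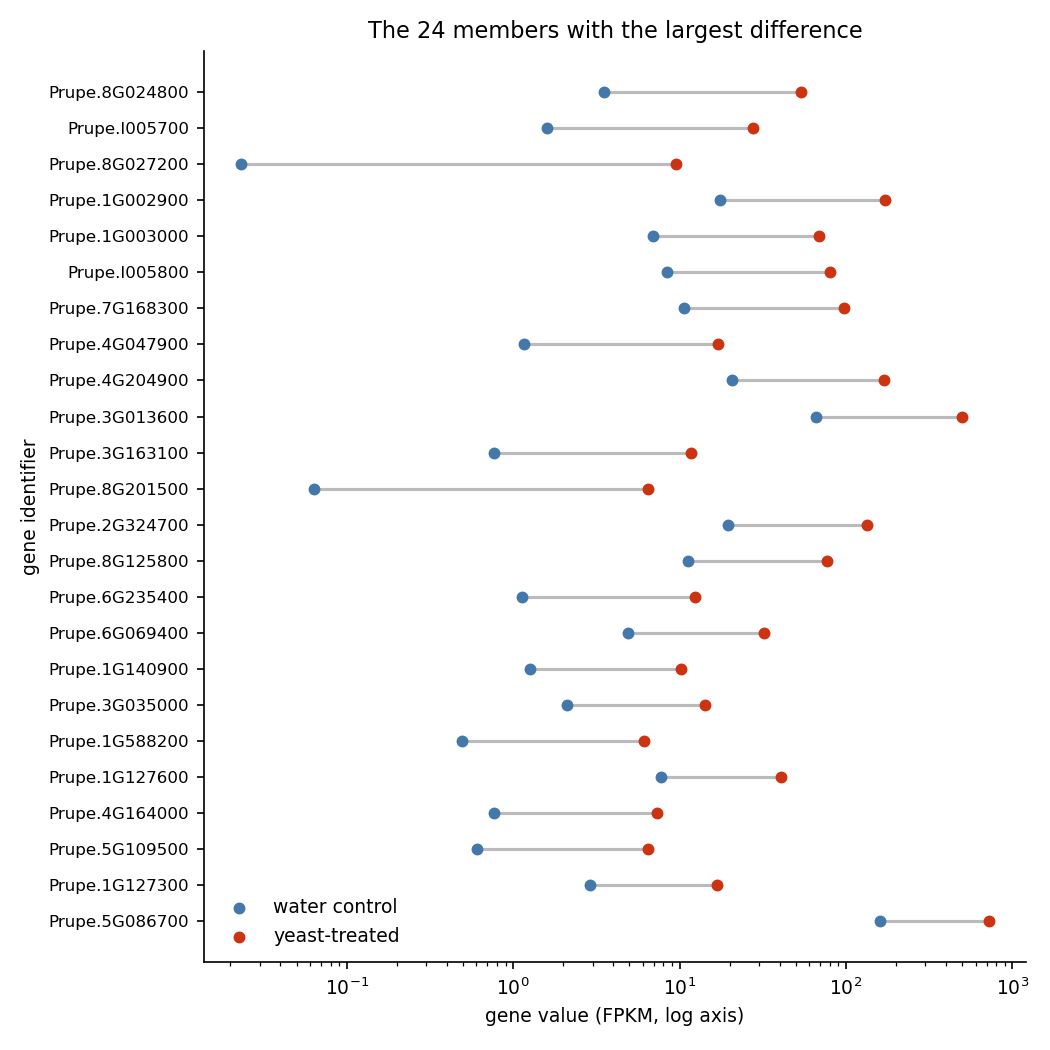
The 24 members with the largest difference of log2(FPKM + 1), from the largest at the top; blue points give the water control and red points the yeast-treated library (FPKM, log axis), 1 library each. Starting levels run from 0.0232 FPKM (Prupe.8G027200) to 161 FPKM (Prupe.5G086700).

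Among members that were already abundant, Prupe.5G203600 (Pp05, 16348784 to 16351714, 3 exons) had the highest treated value, with 237 FPKM with water and 852 FPKM with the yeast. Prupe.5G086700 (Pp05, 9816076 to 9818049) followed, with 161 and 721 FPKM. Prupe.4G059600 (Pp04, 2843790 to 2845326) had the highest control value of all members, 288 FPKM, and 578 FPKM in the treated library. The last of these barely met the rule, with a difference of 1.004 and a ratio of 2.01 (1.96 to 2.06), whereas Prupe.5G086700 differed by 2.16. Prupe.3G013600 (Pp03, 957511 to 958712) joined them from a lower start, with 65.7 FPKM with water and 501 FPKM with the yeast. Its ratio of 7.63 (7.25 to 8.03) rested on about 1707 and 12205 fragments. Prupe.6G056100 (Pp06, 3947958 to 3951358, 8 exons), at 98.9 FPKM with water and 202 FPKM with the yeast, completed the 6 members with the highest treated values together with the merged pair Prupe.1G127800 and Prupe.1G127900.

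No member (0) was listed at 0 in the control library, but 7 started under 1 FPKM. Prupe.8G027200 (Pp08, 2477578 to 2479135, 2 exons) had 0.0232 FPKM with water and 9.48 FPKM with the yeast. These values rest on about 1 fragment and 345 fragments, so its ratio of 408 has an interval from 65.6 to 14575. Prupe.8G201500 (Pp08, 19017826 to 19021267, 3 exons) had 0.0637 and 6.50 FPKM on about 4 and 416 fragments, a ratio of 102 (43.0 to 409). In both genes the size of the ratio is poorly fixed by the control count, while the treated values are well covered. Prupe.3G163100 (Pp03, 18220455 to 18222943, 3 exons) had 0.771 FPKM with water and 11.7 FPKM with the yeast on about 28 and 396 fragments. Over all members, 7 had fewer than 30 fragments in the control and 0 had fewer than 30 in the treated library, where the smallest number was 95.4. The lower bound of the ratio was 2 or more in 122 of the 143, and the lowest bound was 1.70. The rule selected on these same values, with a lowest ratio of 2.01, so the bounds are a description and lend the calls no support.

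The share of genes that met the rule was largest for genes that started low but detectable. Of 3824 annotated genes with 1 to 5 FPKM in the control, 53 were members (1.39%), and of 5205 with 5 to 20 FPKM, 57 were (1.10%). From 20 to 100 FPKM there were 23 of 3612 (0.637%), and from 100 FPKM 3 of 921 (0.326%). Under 1 FPKM only 7 of 5773 were members, a class in which the treated minimum of 5 FPKM admits only genes at more than 5 times their start. The median ratio was 12.4 in that class, and 3.44, 2.68, 2.65 and 3.59 in the next 4 classes in order of level.

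The rule left close neighbours on either side of each threshold. Just inside the difference lay Prupe.1G423400, with 11.1 FPKM with water and 23.2 FPKM with the yeast, Prupe.3G143800, with 7.20 and 15.4 FPKM, and Prupe.5G062000, with 3.85 and 8.71 FPKM. Just outside lay Prupe.1G311400, with 246 and 492 FPKM, Prupe.1G078700, with 4.88 and 10.7 FPKM, and Prupe.1G447700, with 2.82 and 6.58 FPKM. Their differences ran from 0.989 to 1.002, so membership at this edge separates genes of nearly equal difference. At the treated minimum, the members Prupe.1G080600, Prupe.3G013700 and Prupe.8G209300 had 5.11, 5.16 and 5.16 FPKM in the treated library. Prupe.7G013700, which had 0.216 FPKM with water and 4.99 FPKM with the yeast, was left out with a difference of 2.30, as were Prupe.5G185200 and Prupe.6G229500, with treated values of 4.85 and 4.76 FPKM.

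In rank among annotated genes the members moved from a median of 8919 in the control to 4862 in the treated library. The median gain was 3580 places, and the range ran from 155 places at Prupe.4G059600 to 10862 at Prupe.8G027200. None (0) of the members was among the 100 most abundant annotated genes in the control library and 3 were in the treated library. The top 1000 held 4 members with water and 20 with the yeast. The 3 members in the treated top 100 were Prupe.5G203600, Prupe.5G086700 and Prupe.4G059600, at ranks 54, 69 and 90. They had held ranks 321, 523 and 245 in the control. Prupe.3G013600 moved from rank 1515 to rank 109.

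**Figure D3:**
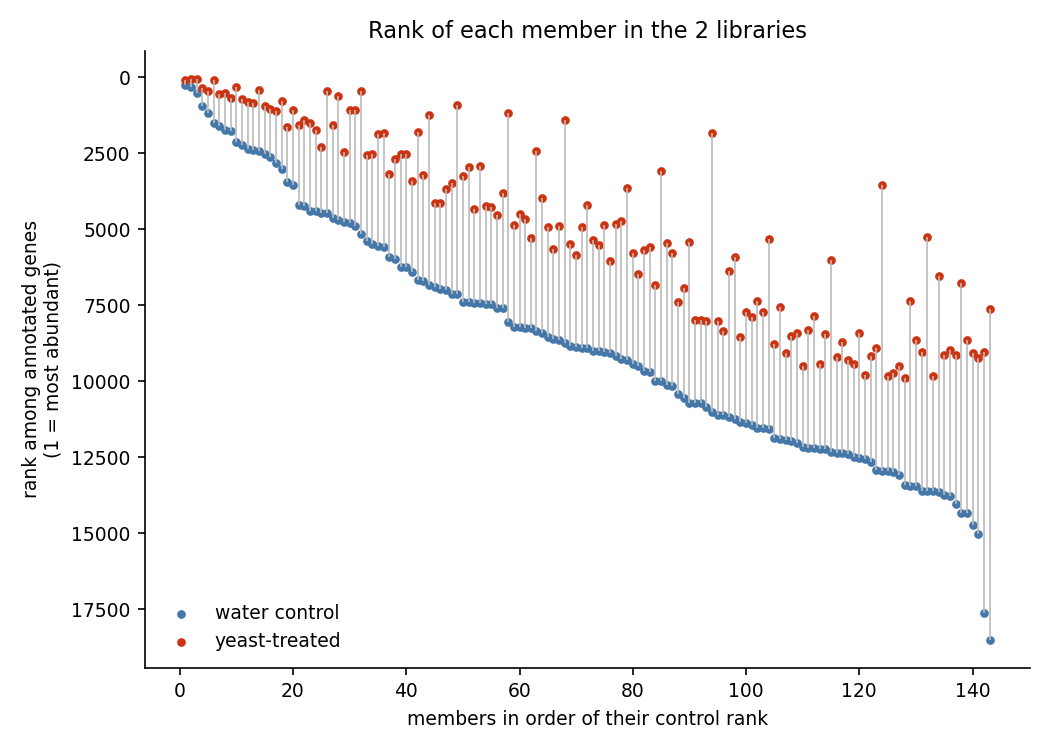
Rank of each of the 143 members among annotated genes (1 is the most abundant, at the top) in the water control (blue) and the yeast-treated library (red), with members ordered by control rank. The longest line belongs to Prupe.8G027200, from rank 18502 to rank 7640.

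The members had few exons, a property the rule did not use. Counted on the longest annotated transcript of each gene, the median member had 2 exons, compared with 6 in the other 9604 annotated genes at 5 FPKM or more in the treated library. Of the members, 33 (23.1%) had 1 exon, 43 (30.1%) had 2, 26 (18.2%) had 3, 34 (23.8%) had 4 to 9 and 7 (4.90%) had 10 or more. Among the other genes the shares in the same order were 7.91%, 11.3%, 10.3%, 43.9% and 26.5%. Put as shares of each class, 4.16% of single-exon genes at this level were members, 3.81% of those with 2 exons, 2.55% with 3, 0.800% with 4 to 9 and 0.274% with 10 or more.

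Members also held a smaller share of many-exon genes within each level of abundance, and a larger share of genes with 3 or fewer exons within each class of length. Genes of 10 or more exons were 9.52% of the members at 5 to 10 FPKM in the treated library and 26.3% of the other genes of that level. From 20 to 100 FPKM they were 2.00% and 27.7%, and from 100 FPKM 5.56% and 13.6%, the last with 1 gene of 18 members. Members were also shorter, with a median exonic length of 1527 bases against 1882 in the others, and their median span on the genome was 1926 against 3695 bases. At 1500 to 2000 bases, 26 of 36 members (72.2%) had 3 or fewer exons, compared with 24.9% of the other genes of that length. At 3000 bases or more these shares were 45.5% of 11 members and 13.5%. A single annotated transcript was listed for 98 members (68.5%) and for 52.6% of the other genes. Part of this was shared by the 152 genes of the mirror rule, which were lower with the yeast. These had a median length of 1613 bases and a median span of 2610 bases, 65.8% had a single annotated transcript and 17.1% had 1 exon. They were unlike the members in the share with 2 or 3 exons, 21.7% compared with 48.3%, and in the share with 10 or more, 29.6% compared with 4.90%. These shares were set side by side without a test.

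**Figure D4:**
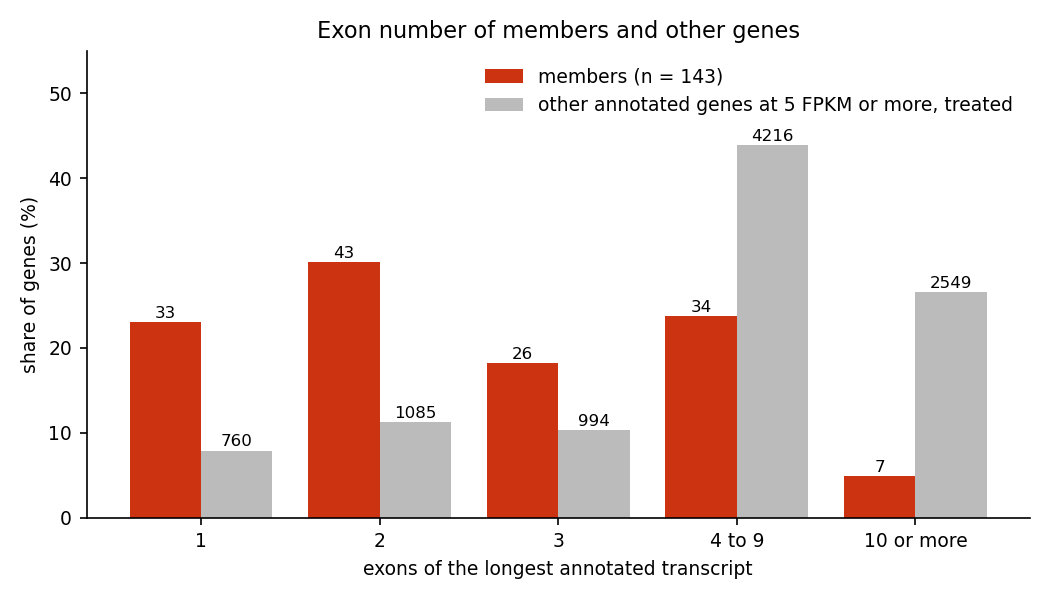
Share of genes (%) by exon number of the longest annotated transcript, for the 143 members (red) and the other annotated genes at 5 FPKM or more in the treated library (grey), with the number of genes above each bar. Members with 1, 2 and 3 exons number 33, 43 and 26.

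The small share of genes with 10 or more exons depended on taking gene values. When only the annotated transcripts of each gene were summed, 206 rows met the same rule (1.54% of 13351), and 22.3% of them had 10 or more exons, compared with 25.4% of the other genes at that level. Of the 206, 138 were member rows, of which 5.07% had 10 or more exons. The remaining 68 rows were not members, and 39 of them (57.4%) had 10 or more exons. Their median difference by the gene value was 0.19, and 66 of the 68 had several transcripts in the files. In 62 of these genes the gene value was higher by less than 0.5 although the annotated transcripts met the rule.

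The few members with many exons were Prupe.3G025900, Prupe.3G072000 and Prupe.3G228600 on Pp03, Prupe.6G364000 on Pp06, and 3 values in 1 stretch of Pp08. The first 3 were low genes close to the edges of the rule, with treated values of 5.25, 7.48 and 8.77 FPKM and differences from 1.01 to 1.11. Prupe.6G364000 (30568263 to 30573864, 11 exons) had 2.21 FPKM with water and 9.02 FPKM with the yeast, a ratio of 4.08 (3.33 to 5.03). These genes were named after their values were seen.

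Members lay on all 8 chromosome-scale sequences. Of the annotated genes at 5 FPKM or more in the treated library, 1.93% were members on Pp04 (18 genes), 1.91% on Pp08 (18), 1.63% on Pp01 (37), 1.52% on Pp06 (21) and 1.36% on Pp03 (15). The shares were 1.19% on Pp05 (11 genes), 1.05% on Pp02 (12) and 0.855% on Pp07 (9). Both genes of scaffold_71 that reached this level were members. On the plus strand lay 71 members (49.7%), compared with 51.0% of the other genes at this level.

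Most members stood alone among their neighbours. Neighbours were taken as the nearest annotated genes that reached 1 FPKM in either library. By this measure 116 members had no member beside them, and 27 fell into 12 groups of adjacent members, of which 10 held 2 members. The 15 adjacent pairs inside these groups were on the same strand in 10 cases (66.7%), compared with 50.5% of all 13937 neighbouring pairs. They had the same exon number in 10 cases (66.7%), compared with 9.73% of all neighbouring pairs, but the members as a whole are concentrated at 1 to 3 exons. Pairs within the longest group, 4 members of 2 exons on Pp01, share genes and are not independent. The median gap between adjacent members was 4667 bases, and between all neighbours 3681 bases. Where neighbours are near-identical copies, reads can be split between them, so single values in such groups are uncertain. Their sequences were not used here.

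Several adjacent pairs had the same exon number in both genes. Prupe.7G160500 (Pp07, 16687391 to 16687872) and Prupe.7G160600 (16687928 to 16688466) are single-exon genes on the plus strand with 55 bases between them. The first had 19.9 FPKM with water and 63.0 FPKM with the yeast, and the second 15.6 and 52.6 FPKM, with differences of 1.61 and 1.69. The expressed genes on either side, Prupe.7G160300 and Prupe.7G160700, differed by 0.27 and -0.17. The higher value was thus limited to these adjoining models among their nearest expressed neighbours. Prupe.4G166100 and Prupe.4G166200 (Pp04, 9634891 to 9641308), again single-exon genes on the plus strand, had 9.74 and 22.4 FPKM with water and 33.8 and 69.9 FPKM with the yeast. Prupe.7G246300 and Prupe.7G246400 (Pp07, 20956975 to 20962330), both of 2 exons, had 3.85 and 2.53 FPKM with water and 16.4 and 9.70 FPKM with the yeast. Prupe.4G259400 and Prupe.4G259500 (Pp04, 18612019 to 18617106), both of 5 exons, shared a direction but not a level, with 41.8 and 2.28 FPKM with water and 104 and 5.68 FPKM with the yeast.

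In other groups the difference or the gene structure was less alike. Prupe.3G013600 and Prupe.3G013700 face away from each other across 19790 bases, and their differences were 2.91 and 1.52, the second from 1.15 to 5.16 FPKM. Prupe.6G267700 and Prupe.6G267800 (Pp06, 25553843 to 25560721) face each other across 1197 bases and have 6 and 3 exons. Their differences were nearly equal, at 1.59 and 1.56, with 21.3 and 1.62 FPKM with water and 65.8 and 6.73 FPKM with the yeast. Prupe.1G146300 and Prupe.1G146400, single-exon genes on Pp01 from 11506633 to 11527722, differed by 1.13 and 1.88 and had 6.80 and 3.24 FPKM with water and 16.1 and 14.5 FPKM with the yeast. On Pp08, Prupe.8G063800, Prupe.8G064000 and Prupe.8G064100 formed a loose row of 3 over 112281 bases, with differences of 1.16, 1.15 and 1.83, of which the first 2 were nearly equal. Their exon numbers were 4, 6 and 1, so this row holds unlike gene models.

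One group lay on Pp01 between 9985573 and 10056490, where 8 of 17 annotated rows were member rows, all 8 with 2 exons. Prupe.1G127500, Prupe.1G127600, Prupe.1G127700 and the merged value of Prupe.1G127800 and Prupe.1G127900 formed the longest row of adjacent members, with differences of 1.52, 2.25, 1.42 and 2.15. The merged value was 47.3 FPKM with water and 213 FPKM with the yeast. By their own transcripts, Prupe.1G127800 had 60.0 and 286 FPKM and Prupe.1G127900 had 31.9 and 123 FPKM, so both genes of the merged locus met the rule. The members of the group spanned a wide range of levels, from Prupe.1G127700, with 2.06 FPKM with water and 7.17 FPKM with the yeast, to Prupe.1G127800. Set apart from the row by genes that are not members, Prupe.1G127300 had 2.90 and 16.9 FPKM, Prupe.1G128200 had 7.60 and 24.4 FPKM, and Prupe.1G128900 had 2.93 and 9.27 FPKM. The row ended at Prupe.1G128000, a gene of 3 exons that had 18.9 FPKM with water and 12.4 FPKM with the yeast. At the other end of the row, the listed value of Prupe.1G127400 differed by 1.38, from 0.350 to 2.52 FPKM, and was left out only by the treated minimum. The same pair of values belongs to a newly assembled transcript that overlaps the members Prupe.1G127300 and Prupe.1G127500 on the opposite strand. Whether that value holds reads of these members was not tested. Of the remaining nearest expressed neighbours of the group, Prupe.1G127200, Prupe.1G128300 and Prupe.1G128700 were higher, by 0.76, 0.92 and 0.70. Prupe.1G129200 differed by -0.20. Prupe.1G128700, beside Prupe.1G128900, had 4932 FPKM with water and 7998 FPKM with the yeast. Whether it shares reads with that member was not tested.

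Another stretch, on Pp08 from 16259119 to 16309356, held 5 member rows of 12 to 15 exons, all on the minus strand. All annotated rows of this stretch were not counted, so no share is given. Prupe.8G147700, Prupe.8G147800 and Prupe.8G147900 carried 1 merged value, 56.5 FPKM with water and 125 FPKM with the yeast. By their own annotated transcripts they were unlike: Prupe.8G147800 had 87.9 and 198 FPKM, Prupe.8G147900 had 3.74 and 7.97 FPKM, and Prupe.8G147700 was listed at 0 in both libraries. The merged value therefore describes mainly Prupe.8G147800. Neither Prupe.8G147700 nor Prupe.8G147900 met the rule by its own transcripts. Prupe.8G148000 next to it had 6.74 and 14.7 FPKM, and Prupe.8G148500 farther on had 11.8 FPKM with water and 54.7 FPKM with the yeast, a ratio of 4.64 (4.29 to 5.02). Between them, Prupe.8G148200 had 32.0 and 34.5 FPKM and Prupe.8G148400 had 9.40 and 12.6 FPKM. The adjacent members Prupe.8G147800 and Prupe.8G148000 had similar differences, 1.13 and 1.02, while Prupe.8G148500, which is not next to them, differed by 2.12.

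**Figure D5:**
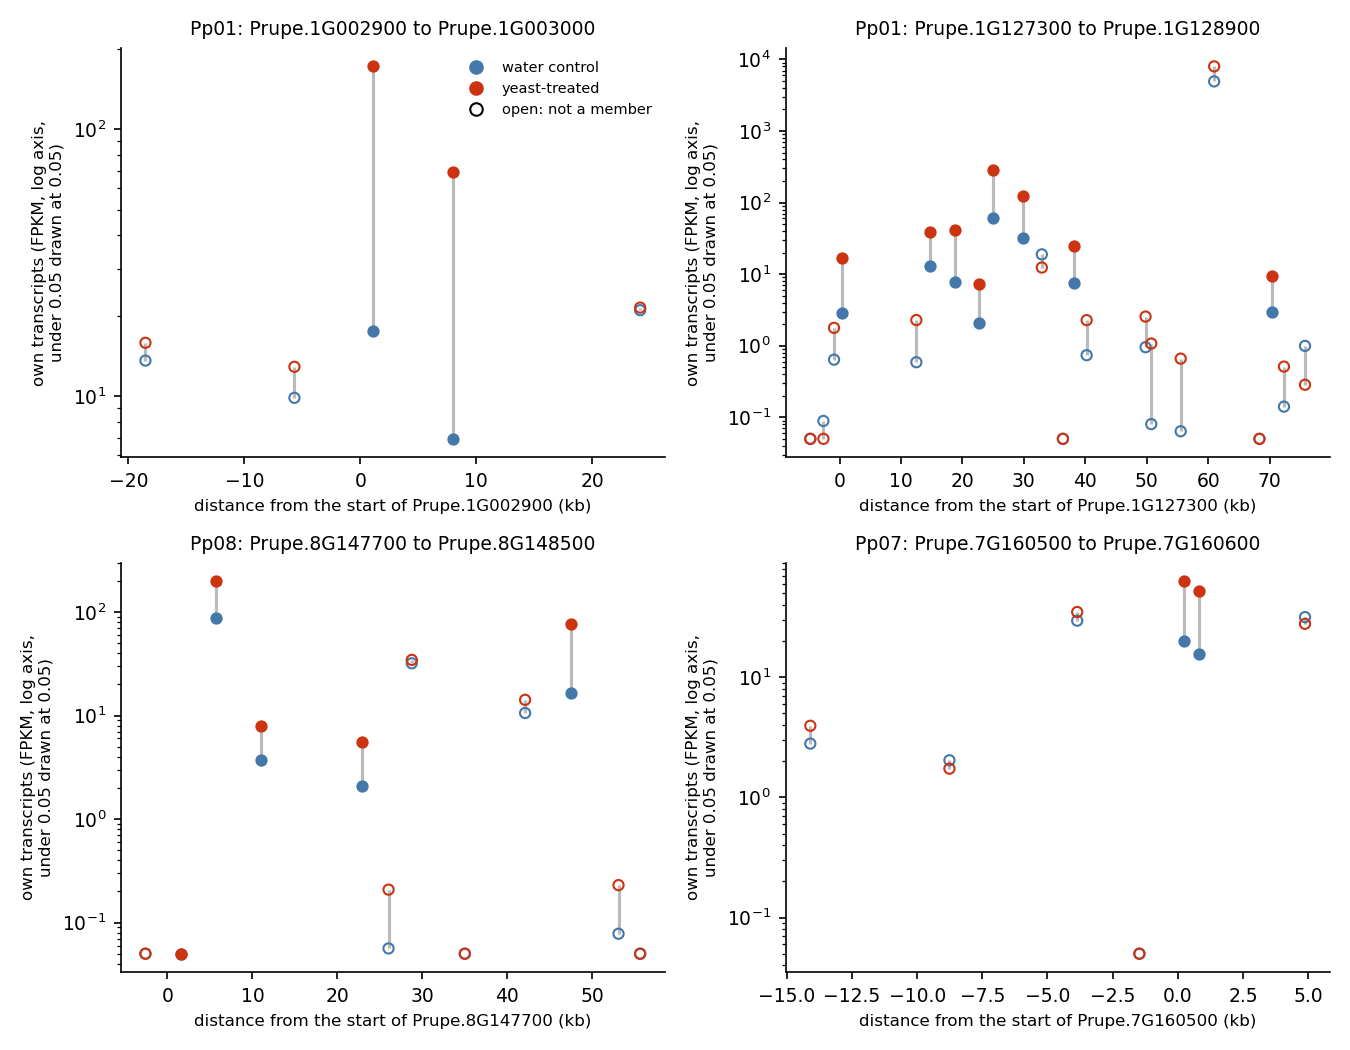
Summed FPKM of the annotated transcripts of each gene (log axis; values under 0.05 drawn at 0.05) against distance in kb from the start of the first gene named, in 4 stretches that hold adjacent members; blue is the water control, red the yeast-treated library, and open circles are genes that are not members. The filled point at the floor in the Pp08 panel is Prupe.8G147700, which was listed at 0 in both libraries.

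The nearest expressed neighbours that were not members had a median near that of the rest of the genes, but more of them were higher by 0.5 or more. Their median difference was 0.07 over 251 genes, compared with 0.01 over all 13815 expressed genes that were not members. Of the 251, 28 (11.2%) were higher by 0.5 or more, compared with 5.14% of the 13815, and 15 (5.98%) were lower by 0.5 or more, compared with 6.41%. Without the 6 neighbours of the Pp01 group, 24 of 245 (9.80%) reached 0.5. Neighbouring models that share reads with a member would be counted among these, and that was not tested. The largest was Prupe.1G332600, beside Prupe.1G332700, with 0.165 FPKM with water and 3.01 FPKM with the yeast. The member Prupe.2G266100 had a neighbour in the other direction: Prupe.2G266000, 5372 bases away, had 29.8 FPKM with water and 5.84 FPKM with the yeast.

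Most members met the rule by their own annotated transcripts as well as by the gene value. On annotated transcripts alone, 137 of the 143 members kept at least 1 row past the rule, and 6 had none. Much of this was fixed in advance, since 88 of the 143 loci had 1 transcript, where both values are the same. Newly assembled transcripts entered at 16 loci, and all 6 members without such a row were among these. Prupe.2G202600 and Prupe.6G267800 kept differences of 1.40 and 1.07 but were under the treated minimum. Prupe.3G143800 and Prupe.6G056100 kept their direction with differences of 0.57 and 0.91. In Prupe.6G056100, a newly assembled transcript of 7 exons held 79.1% of the locus FPKM with water and 80.5% with the yeast.

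In the last 2 of these 6, the annotated transcripts were not higher. Prupe.3G012500 (Pp03, 792671 to 795954) was listed with 6.44 FPKM with water and 19.1 FPKM with the yeast. Its annotated transcript had 0.0153 and 0.0111 FPKM, on about 1 fragment or less in either library. The gene value came instead from newly assembled transcripts of another locus. The most abundant of these, of 396 bases, spans 790661 to 896029 across further annotated genes and had 7.58 FPKM with water and 24.4 FPKM with the yeast. At Prupe.6G303800 (Pp06, 27519633 to 27524246), the annotated transcripts had 6.004 FPKM with water and 0.970 FPKM with the yeast, while a newly assembled transcript of 6 exons had 1.09 and 14.7 FPKM. That transcript belongs to the same locus, and with all transcripts of the gene summed the difference was 1.04. Prupe.6G303700, which overlaps this gene on the opposite strand, had 85.2 FPKM with water and 136 FPKM with the yeast. Whether its reads enter the new transcript was not tested. Both members were named after their values were seen.

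Prupe.1G182900 and Prupe.1G183200 on Pp01 shared a value of 18.6 FPKM with water and 85.5 FPKM with the yeast. The single-exon gene Prupe.1G183200 (16208305 to 16209197) had 0.410 FPKM with water and 81.7 FPKM with the yeast by its own transcript. In the control, 98.9% of the locus lay on a new transcript of 479 bases that spans 16090262 to 16209197, and that share was 22.3% in the treated library. By the own transcripts of Prupe.1G182900 the values were 2.88 and 5.09 FPKM, a difference of 0.65. Of this pair, only Prupe.1G183200 met the rule by itself.

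Where a member had several transcripts, the leading one was usually the same in both libraries. Of the 143 loci behind the members' values, 88 had 1 transcript and 55 had several, and in 8 of the 55 another transcript led in the treated library. In Prupe.1G201800, transcript 1 with 3 exons had 0.0582 FPKM with water and 5.60 FPKM with the yeast, while transcript 2 with 2 exons had 1.16 and 1.14 FPKM. In Prupe.1G540000, a shorter transcript of 2129 bases had 2.18 FPKM with water and 24.5 FPKM with the yeast, and the longer one of 3694 bases had 4.84 and 4.67 FPKM. The added signal of both genes thus lay on 1 annotated transcript, by the authors' division of reads, beside another that was nearly level. Prupe.1G540000 is overlapped on the opposite strand by a newly assembled transcript with 1221 FPKM with water and 1176 FPKM with the yeast. Whether reads of that transcript enter the values of Prupe.1G540000 was not tested. In Prupe.1G588200 a transcript of 2 exons led with 0.520 FPKM in the control and was at 0 with the yeast, where a single-exon transcript had 6.14 FPKM. That lead in the control rests on about 21 fragments, compared with about 5 on the single-exon transcript.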

How the data were processed

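RNA-seq of wound tissue was deposited by the authors as FPKM, in 1 gene table and in 1 transcript table of 51199 rows per library; the latter also give coverage, deposited by the authors as mean read depth per base. The submitters' processing notes list HISAT2 and HTSeq 0.6.1 without saying what each did. Build, assembler and strandedness were not given in the sources used here.

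Differences are log2(treated FPKM + 1) minus log2(control FPKM + 1), computed in Python 3.11.15 with pandas 2.3.3. Fragments are coverage times length over 300 bases, the most frequent product in barely covered transcripts. In all 147 member rows, the summed transcript FPKM times length, over the gene value, gave the same length for water and yeast to 0.001 relative. A tolerance of 0.5 bases admits any value, so it could not show that this length is whole. In 2 rows the transcripts were those of another locus, which was chosen by this same agreement. At the 88 loci with 1 transcript the check could hardly fail. Positions come from the transcript tables and count from 1. Of rows with identical values, the one with most fragments in its own transcripts stands for the pair in counts. The calling rule was tried on simulated counts with counting error only, drawn from genes at 5 FPKM or more in the control. Members that started lower, and variation between fruit, were outside it.

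The members and lists were chosen with earlier results of these data known. Named are the 12 members with the largest difference, the 6 with the highest treated FPKM, adjacent members, and 3 genes on each side of each threshold; others were named after their values were seen. Product lists, marker lists and promoter motifs were not used, since no identifier matched a product.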

Additional observations from a re-analysis of the deposited data

How the results depend on the processing

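The count of 143 members depended most on the pseudocount and the difference required. With a pseudocount of 5 there were 72 members, at a difference of 1.5 or more 60, and at 2 or more 29. The count stayed within 1.5 times with a pseudocount of 0.1 (162), no treated minimum (203), a minimum of 10 FPKM (101), identical rows each kept (147), upper quartile scaling (138), trimmed mean scaling (135), sums of all transcripts (156), annotated transcripts only (206) and at least 30 fragments in the treated library (143). The fragment setting could not change the count, since the smallest treated number among members was 95.4 fragments. A similar count is not the same set: the 206 on annotated transcripts only shared 137 with the 143. The share of members with 2 or 3 exons was 48.3%, and it was 60.0% at a difference of 1.5, 65.5% at 2 and 34.5% on annotated transcripts only. The share with 10 or more exons was 4.90%, and 22.3% on annotated transcripts only, where 68 rows that are not members enter. Adjacent pairs numbered 15, 14 with every annotated gene counted as between, and 16 on annotated transcripts only. Of 342 alternative values of 57 named identifiers, 266 lay within counting error and 73 moved beyond it, 47 of them with a pseudocount of 5. The direction reversed in 3: Prupe.1G182900 with all transcripts summed (-0.25), and Prupe.3G012500 (-0.0061) and Prupe.6G303800 (-1.83) on annotated transcripts only. This tally does not measure how stable the members are. Its intervals belong to a pseudocount of 1, so a pseudocount of 5 moves values by arithmetic. Each scaling is a single factor near 1, and genes with 1 transcript keep their value in transcript sums. The 57 identifiers include genes just outside the thresholds, which are not members. No paired analysis was possible because a group is 1 library; leaving a library out was impossible for the same reason. Product lists and promoter motifs were not run.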

Other observations

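Transcripts listed on the opposite strand overlapped 21 of the 147 member rows, and in 16 of these rows at least 1 was newly assembled. Whether the libraries kept strand was not stated, so reads from the 2 strands of such a locus cannot be told apart. Some of these transcripts stood higher together with the member. Inside Prupe.8G024800, opposite transcripts summed to 0.453 FPKM with water and 17.6 FPKM with the yeast. A transcript that overlaps both Prupe.1G002900 and Prupe.1G003000 had 1.40 and 18.2 FPKM, and 2 opposite Prupe.5G086700 summed to 4.91 and 14.2 FPKM. Others were nearly level while the member was higher. The most abundant, a newly assembled transcript opposite Prupe.1G540000, had 1221 FPKM with water and 1176 FPKM with the yeast, where the member had 7.15 and 18.9 FPKM. Prupe.2G324800, opposite Prupe.2G324700, had 33.3 FPKM with water and 31.7 FPKM with the yeast, where the member had 19.6 and 133 FPKM. Prupe.1G144300, opposite Prupe.1G144200, had 86.7 and 72.1 FPKM, and the member had 5.97 and 26.8 FPKM.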
